A study of Mus musculus with 4 samples.

Results

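In single-cell RNA libraries of skeletal muscle from a mouse model of Duchenne muscular dystrophy (DMD), 754 of 6428 barcodes (11.7%) drew more than 20% of their UMIs from the 13 mitochondrially encoded genes. A barcode stands for the RNA caught in 1 droplet, and a UMI (unique molecular identifier) for 1 counted RNA molecule. Only barcodes with at least 200 detected genes were considered, and those above 20% are called high-mitochondrial barcodes here. They numbered 122 of 1274 barcodes (9.58%) in LNP-CRISPR bulk, 77 of 1281 (6.01%) in vehicle bulk, 299 of 2206 (13.6%) in LNP-CRISPR kit and 256 of 1667 (15.4%) in vehicle kit. The mitochondrial share itself chose these barcodes. Every value below of mitochondrial RNA or of non-mitochondrial depth is therefore a description and supports nothing.

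The 4 libraries came from mice given LNP-CRISPR, lipid nanoparticles that carry a CRISPR gene editor with the cutting enzyme Cas9, or vehicle. From each treatment, 1 library held a bulk muscle preparation and 1 held cells taken through a satellite cell isolation kit, which is meant to enrich the stem cells of muscle. The Dmd allele, strain, age, muscle, dose, time after dosing and number of animals are not given in the sources used here, and neither is whether animals were pooled. Both treatments share the disease model and the isolation method. Each group had 1 library, so treatments were set side by side without a test, and all intervals below cover counting error only.

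Mitochondria carry their own small genome, whose messages encode subunits of the respiratory chain and of ATP synthase and are made inside the organelle. All other respiratory chain subunits, and every ribosomal protein of the cytoplasm, are translated from nuclear-encoded messages in the cytoplasm. A high share of mitochondrial RNA is widely used as a sign of a damaged or leaking cell, because messages inside an intact organelle can stay behind when cytoplasmic messages are lost. Cells rich in mitochondria, such as muscle fibres, can also have a high share without damage, and droplet data alone give no direct measure of membrane integrity.

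The deposited matrices held 6512 barcodes and 128987621 UMIs, 25921795 to 40666916 per library. A further 84 barcodes had under 200 genes, and 76 of those lay above 20% mitochondrial UMIs; they are left aside except where named. Doublets were not removed. Between 2 libraries, 6 barcode sequences were shared, of which 1 belonged to a high-mitochondrial barcode in either.

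High-mitochondrial barcodes were shallow. Their median number of non-mitochondrial UMIs was 1532 in LNP-CRISPR bulk, 2313 in vehicle bulk, 3786 in LNP-CRISPR kit and 3472 in vehicle kit, against 15235, 21470.0, 9704 and 8057 in the remaining barcodes of the same libraries. Their median number of mitochondrial UMIs was 1086, 1234, 1875 and 1989 in the same order of libraries, against 721.5, 892, 518 and 451 in the remaining barcodes. In all 4 libraries the medians therefore differed in opposite directions, with fewer non-mitochondrial and more mitochondrial UMIs. Both kinds of UMIs enter the share that chose the barcodes, so the limit itself selects for both differences. High-mitochondrial barcodes held 8.98% to 29.2% of a library's mitochondrial UMIs but 0.701% to 4.28% of its other UMIs.

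**Figure D1:**
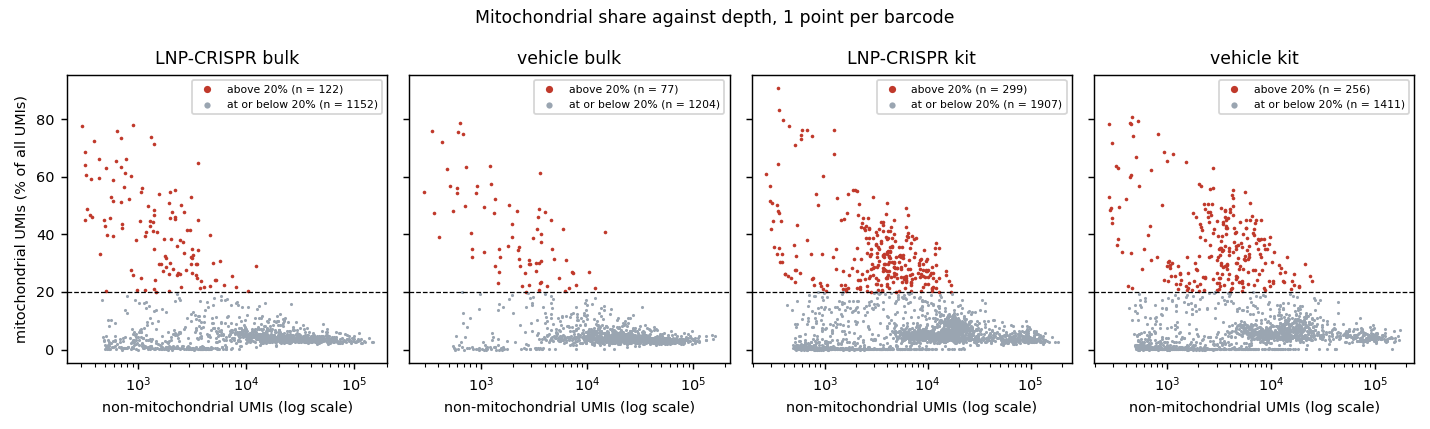
Percent of mitochondrial UMIs (y axis) against non-mitochondrial UMIs per barcode (x axis, log scale) in each library, with 1 point per barcode of at least 200 genes and a line at 20%. The barcodes above the line have medians of 1532 to 3786 non-mitochondrial UMIs, against 8057 to 21470.0 below it.

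The share had no gap at the limit. The barcodes just inside it had 20.044%, 20.018%, 20.007% and 20.039% mitochondrial UMIs in LNP-CRISPR bulk, vehicle bulk, LNP-CRISPR kit and vehicle kit, and those just outside had 19.4%, 19.9%, 19.9% and 19.989%. The median share of the high-mitochondrial barcodes was 40.2%, 35.9%, 30.4% and 33.7%, against 3.78%, 3.72%, 4.27% and 4.48% in the remaining barcodes.

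Within the mitochondrial RNA, the mix of genes was close to that of the remaining barcodes. mt-Atp6, a subunit of ATP synthase, made up 20.5% ± 0.78 of mitochondrial UMIs in high-mitochondrial barcodes and 19.4% ± 0.27 in the remaining barcodes (mean ± SD over 4 libraries). mt-Co1, the catalytic subunit of cytochrome c oxidase, made up 14.4% ± 1.13 in high-mitochondrial barcodes and 16.7% ± 0.82 in the remaining barcodes, and was lower in 4 of 4 libraries. mt-Co3, another cytochrome c oxidase subunit, made up 18.0% ± 0.90 in high-mitochondrial barcodes and 17.03% ± 1.03 in the remaining barcodes. The other 10 genes ranged from mt-Nd6 at 0.23% to mt-Co2 at 14.1% of the mitochondrial UMIs of high-mitochondrial barcodes.

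High-mitochondrial barcodes were spread unevenly over the cell types. All barcodes were clustered on their non-mitochondrial genes and the clusters named from marker lists, with names ending in "-like" because they rest on those markers alone. Of 753 pericyte or smooth muscle-like barcodes, the cells that wrap blood vessels, 211 (28.0%) were high-mitochondrial, and of 1157 satellite or myogenic-like barcodes 231 (19.97%) were. Shares were 9.22% of 282 tenocyte-like barcodes, 6.62% of 408 macrophage or monocyte-like, 5.71% of 770 glial-like, 4.54% of 705 muscle fibre-like and 3.15% of 1110 FAP-like (fibro-adipogenic progenitors, the connective tissue cells of muscle). The lowest shares among classes of at least 50 barcodes were 1.12% of 89 T, NK or innate lymphoid-like barcodes and 1.99% of 201 neutrophil-like barcodes.

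In the kit libraries, vascular and myogenic barcodes made up most of the high-mitochondrial barcodes. Pericyte or smooth muscle-like barcodes were 121 of 299 (40.5%) in LNP-CRISPR kit and 75 of 256 (29.3%) in vehicle kit, against 17.6% and 10.8% of the remaining barcodes. Satellite or myogenic-like barcodes were 106 (35.5%) in LNP-CRISPR kit and 117 (45.7%) in vehicle kit, against 23.8% and 28.8% of the remaining barcodes. The markers below are on the lists that named these clusters, so their values describe the names and do not test them. Myh11, the myosin heavy chain of smooth muscle, had a UMI in 100% and 98.7% of the pericyte or smooth muscle-like ones of LNP-CRISPR kit and vehicle kit, at 6880.1 and 7426 CPM (UMIs per 1000000 non-mitochondrial UMIs). The satellite or myogenic-like ones of the same libraries, with median depths of 5696 and 4326 non-mitochondrial UMIs, had a Myh11 UMI in 25.5% and 14.5%, at 51.1 and 26.5 CPM; this is the background level of the gene. Pax7, the transcription factor of satellite cells, had a UMI in 42.5% of the satellite or myogenic-like high-mitochondrial barcodes of LNP-CRISPR kit and 34.2% of those of vehicle kit, at 150.2 and 111.8 CPM. In the pericyte or smooth muscle-like ones, with median depths of 3991 and 3726, it was 1.65% of 121 and 0 of 75, at 4.10 CPM and at 0. Other pericyte or smooth muscle markers varied in these barcodes. Acta2 had a UMI in 97.5% and 98.7% of them, Rgs5 in 23.1% and 21.3%, and Kcnj8 in 1.65% and 0%. In the remaining barcodes of the class Rgs5 had one in 47.0% and 50.3%.

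In the kit libraries, 2 clusters consisted mostly of high-mitochondrial barcodes. Cluster 11, pericyte or smooth muscle-like by 7 of its 10 markers, held 105 such barcodes of 146 (71.9%) in LNP-CRISPR kit and 59 of 72 (81.9%) in vehicle kit. Cluster 16, satellite or myogenic-like by Pax7, Myf5, Myod1, Cdh15 and Fgfr4, held 71 of 95 (74.7%) in LNP-CRISPR kit and 55 of 64 (85.9%) in vehicle kit. Predicted noncoding genes led both, such as Gm15684 and Gm10848 in cluster 11 and Gm16725 and Gm17300 in cluster 16. No marker of either class was among the 10 leading genes.

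In the bulk libraries, 1 cluster stood out. Cluster 17 held 55 high-mitochondrial barcodes of 89 (61.8%) in LNP-CRISPR bulk and 24 of 44 (54.5%) in vehicle bulk, which is 45.1% and 31.2% of all high-mitochondrial barcodes there, against 2.95% and 1.66% of the remaining ones. Endothelial markers such as Pecam1 and Cdh5 led the cluster as a whole, yet its high-mitochondrial barcodes nearly lacked them. An endothelial marker UMI was present in 12.7% of the 55 barcodes of LNP-CRISPR bulk, 11 of the 19 UMIs coming from 1 barcode, and in 4.17% of the 24 of vehicle bulk. Of the remaining barcodes of the cluster, 9 of 34 in LNP-CRISPR bulk and 8 of 20 in vehicle bulk had one. The cluster is therefore called by its number here. FAP markers had a UMI in 81.8% and 91.7% of its high-mitochondrial barcodes in LNP-CRISPR bulk and vehicle bulk, with median depths of 1047 and 813.5 non-mitochondrial UMIs. The remaining neutrophil-like barcodes, a class that should lack the markers, had near shares. These were 78.1% and 81.8%, with median depths of 2538 and 1624, so presence of a UMI alone does not set cluster 17 apart. The summed levels were higher, at 4357 and 4155 CPM in the high-mitochondrial barcodes of cluster 17. They were 664.7 and 646.1 CPM in the remaining neutrophil-like barcodes, and 1167 and 962 CPM in the remaining barcodes of cluster 17. The part of free RNA in these levels was not tested. The most abundant transcripts of its LNP-CRISPR bulk high-mitochondrial barcodes were the long noncoding Gm42418 and Malat1, at 124970.0 and 74669 CPM, followed by Cas9 at 31763 CPM.

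**Figure D2:**
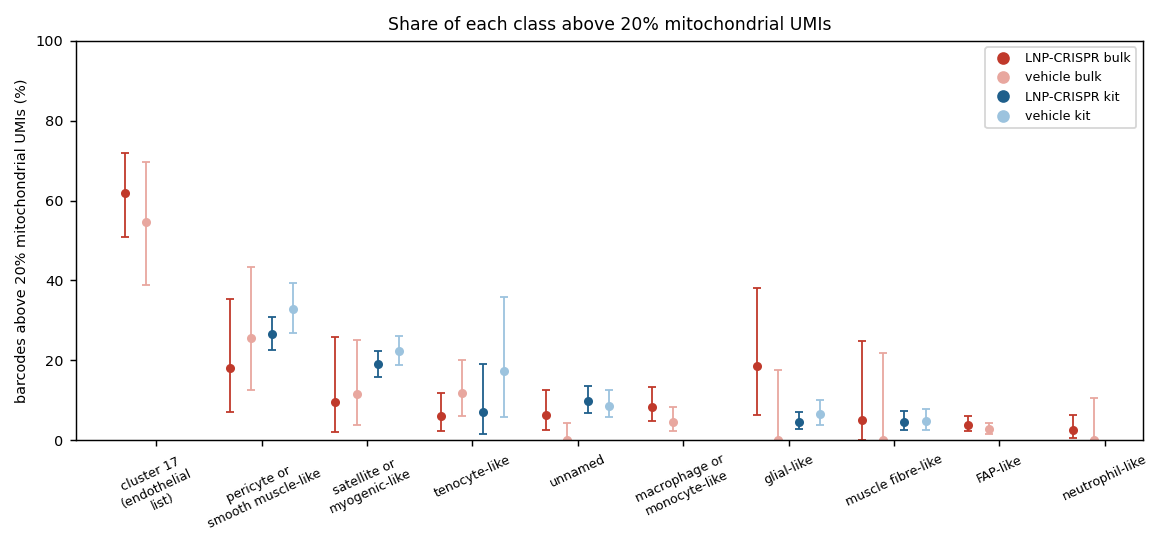
Percent of the barcodes of each class above 20% mitochondrial UMIs (y axis) by class (x axis) and library (colours), with exact binomial 95% intervals that cover counting error only. Pericyte or smooth muscle-like and satellite or myogenic-like barcodes of the kit libraries lie at 18.96% to 32.9% and cluster 17 of the bulk libraries at 54.5% to 61.8%, while FAP-like barcodes of the bulk libraries lie at 2.71% to 3.89%.

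To compare expression at equal depth, each high-mitochondrial barcode was paired with the unused remaining barcode of its library that was nearest in non-mitochondrial UMIs. This gave 715 pairs (115 in LNP-CRISPR bulk, 72 in vehicle bulk, 284 in LNP-CRISPR kit and 244 in vehicle kit) and left out the shallowest 39 high-mitochondrial barcodes, with 271 to 436 non-mitochondrial UMIs. UMIs were summed over each side of a library and tested with edgeR's quasi-likelihood test with Benjamini-Hochberg adjustment over all genes, with the library as a block and mitochondrial genes left out. The 4 libraries thus served as replicates of the contrast, and nothing in the labels says whether they came from separate animals.

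Of 9800 genes tested, 844 (8.61%) were higher and 1741 (17.8%) lower in high-mitochondrial barcodes, 26.4% in either direction. These counts depend on the kit libraries, without which fewer genes could be tested. Without LNP-CRISPR kit the counts were 139 and 526 of 5535 genes tested, and without vehicle kit 140 and 626 of 5473. Of the genes refitted singly, the calls for Fos, Hspa8, Phlda3, Slirp, Hsd17b10, Myh11, Myod1, Myog, Chrna1 and Mt2 were lost when either kit library was left out, that for Cycs without LNP-CRISPR kit and that for Cdc7 without vehicle kit. They also depend on scaling. The TMM factors that edgeR uses lowered the log2 differences by 0.28 to 0.71 in the 4 libraries; scaled to all non-mitochondrial UMIs instead, 2536 genes were higher and 1046 lower, and the median over all genes was 0.46 in place of -0.07 (log2). Fold changes below are from the TMM fit, whereas CPM values are unadjusted.

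The paired barcodes were of other cell types, 177 of them muscle fibre-like, 150 glial-like and 64 neutrophil-like. Pairing was therefore repeated within the same named class (476 pairs) and within the same cluster (357 pairs). Class pairing was chosen after the first results were seen. Within classes 497 of 8550 genes (5.81%) were higher and 911 (10.7%) lower, 16.5% in all. Within clusters 8 of 6787 (0.118%) were higher and 110 (1.62%) lower, 1.74% in all. Since clusters 11 and 16 held few remaining barcodes to pair with, cluster pairing covered 63 of 211 pericyte or smooth muscle-like and 98 of 231 satellite or myogenic-like high-mitochondrial barcodes.

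Messages for ribosomal proteins of the cytoplasm were lower throughout. All 78 tested fell at matched depth, with a median log2 change of -1.55, as did all 78 within classes (-1.69) and 35 of 77 within clusters (-0.94); scaled to all non-mitochondrial UMIs 75 of 78 still fell, with a median of -1.06. Together they made up 44052, 36503, 68575 and 83510.0 CPM of the high-mitochondrial barcodes of LNP-CRISPR bulk, vehicle bulk, LNP-CRISPR kit and vehicle kit, against 87505, 93647, 122620.0 and 168040.0 CPM in their pairs. Rpl41, a protein of the large subunit (chromosome 10, 128548114 to 128549305, GRCm38), had 1169, 1215, 1818 and 2196 CPM, against 2575, 2685, 3188 and 4531 CPM. It fell by 1.51 ± 0.17 on the log2 scale (SE, adjusted p 0.00063, edgeR), and the values did not overlap within either isolation.

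Nuclear-encoded respiratory chain and ATP synthase subunits, the partners of the mitochondrially encoded ones, went the same way. Of 79 tested, 70 fell and 0 rose at matched depth, with a median log2 change of -1.63; within classes 62 fell and 1, the complex I subunit Ndufs1, rose (0.78, adjusted p 0.043, edgeR). Within clusters 3 of 78 fell, Cox6b1, Cox6a2 and Ndufb11, with a list median of -0.46. Scaled to all non-mitochondrial UMIs, 58 of 79 fell and 1 rose. Cox7c, a small subunit of cytochrome c oxidase, had 232, 303, 659 and 849 CPM in the high-mitochondrial barcodes of LNP-CRISPR bulk, vehicle bulk, LNP-CRISPR kit and vehicle kit, against 503, 551, 1278 and 1439 CPM in their pairs (log2 -1.40 ± 0.19 SE, adjusted p 0.0013, edgeR). High-mitochondrial barcodes were thus high in the mitochondrially encoded part of the chain, which chose them, and low in its nuclear-encoded messages. Among 11 tested genes for transcription and upkeep of mitochondrial RNA, the RNA-binding Slirp and the enzyme Hsd17b10 fell and the exoribonuclease Pnpt1 rose. These counts are near the shares over all genes (8.61% higher, 17.8% lower), and the list median was 0.12 (log2). Tfam, the packaging factor of mitochondrial DNA, had a log2 change of -0.36 ± 0.34 (SE, adjusted p 0.46, edgeR).

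Long noncoding RNA took a higher share of UMIs, with Malat1 foremost. Malat1, which is retained in the nucleus (chromosome 19, 5795690 to 5802672), had 74358, 97809, 117510.0 and 89058 CPM in high-mitochondrial barcodes of LNP-CRISPR bulk, vehicle bulk, LNP-CRISPR kit and vehicle kit, against 35128, 32361, 47612 and 32634 CPM in their pairs. It rose by 0.89 ± 0.16 on the log2 scale (SE, adjusted p 0.0045, edgeR), and all 4 libraries lay above all 4 sets of pairs. Within classes its change was 0.33 (adjusted p 0.085, edgeR) and within clusters 0.42 (adjusted p 0.66, edgeR). Of the 8 tested nuclear-retained RNAs on the list, Malat1 and Snhg14 rose and 0 fell; within classes 1 rose and within clusters 0 did, and the list's within-class median was 0.96 and 0.84 in LNP-CRISPR bulk and vehicle bulk but -0.13 and -0.11 in LNP-CRISPR kit and vehicle kit. Neat1, the scaffold of nuclear paraspeckles, had a log2 change of 0.52 (adjusted p 0.053, edgeR). All annotated long noncoding RNA together made up 20.5%, 23.3%, 16.8% and 14.1% of non-mitochondrial UMIs, against 14.1%, 17.4%, 9.01% and 7.69% in the pairs. Malat1 alone made up 7.44%, 9.78%, 11.8% and 8.91%, against 3.51%, 3.24%, 4.76% and 3.26%. Gm42418, a noncoding gene that overlaps ribosomal RNA sequence, did not share this pattern in all libraries. It made up 9.91%, 10.3%, 2.30% and 2.55% of summed non-mitochondrial UMIs, against 8.69%, 12.4%, 2.55% and 2.73%. Its median share per barcode was 10.9% against 6.89% in LNP-CRISPR bulk and 8.02% against 6.18% in vehicle bulk. In the kit libraries that median was 1.93% against 2.09% in LNP-CRISPR and 1.68% against 2.28% in vehicle.

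Gene length went with the direction of change. Of the genes tested, 273 (2.79%) were long noncoding, as were 49 of the 844 higher (5.81%) and 37 of the 1741 lower (2.13%). The median genomic span was 41934 bases for genes that rose, 12389 for genes that fell and 25923 for all tested. In 4 equal bins by span, from shortest to longest, the median log2 change was -0.61, -0.16, 0.11 and 0.20, and 33.1%, 18.0%, 11.1% and 8.94% of genes fell. The order held within classes (-0.38, -0.06, 0.12 and 0.14) and within clusters (-0.27, -0.05, 0.04 and 0.14). A single gene of the muscle fibre list went against the rest: Ttn, which encodes the giant sarcomere protein titin, rose (log2 3.20) while 12 of the 15 tested fell.

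**Figure D3:**
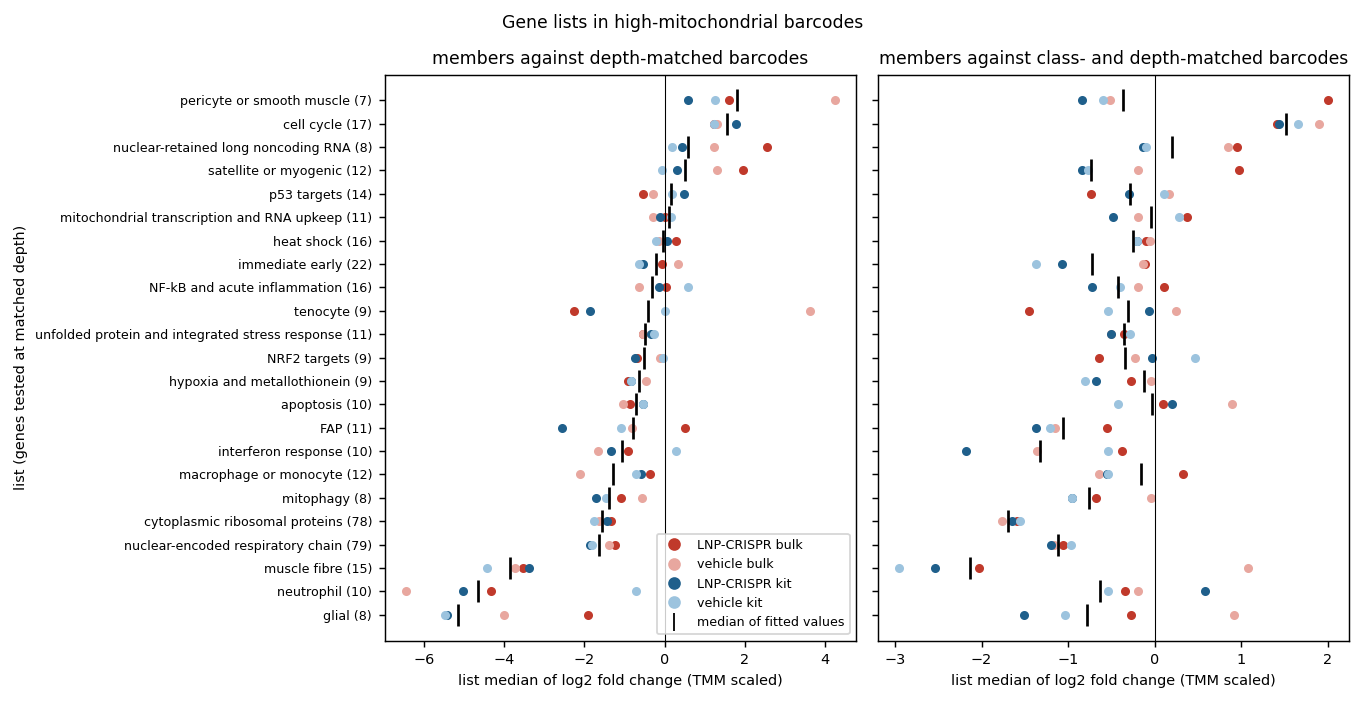
Median log2 difference (x axes, TMM scaled) of high-mitochondrial barcodes against depth-matched barcodes (left) and against class- and depth-matched barcodes (right) for each gene list with at least 5 tested genes (rows, number tested in brackets). Points are single libraries and black bars the median of the fitted values; ribosomal proteins lie at -1.55 and -1.69, and cell cycle genes at 1.57 and 1.52.

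Cell cycle genes were higher at matched depth. Of 17 tested, 11 rose and 0 fell, with a median log2 change of 1.57, beside 8.61% higher over all genes. Within classes 14 rose and within clusters 0 did (median 0.13). Without LNP-CRISPR kit 3 of the 8 still tested rose. Top2a, the DNA-untangling enzyme of dividing cells (chromosome 11, 98992943 to 99024189), had 59.1, 169.2, 465.6 and 461.8 CPM in high-mitochondrial barcodes of LNP-CRISPR bulk, vehicle bulk, LNP-CRISPR kit and vehicle kit, against 11.8, 13.4, 36.4 and 42.6 CPM in their pairs. The groups did not overlap, and the log2 change was 2.88 ± 0.29 (SE, adjusted p 0.00045, edgeR). Within clusters it was 0.21 ± 0.27 (adjusted p 0.80, edgeR). Mki67, the proliferation marker, had log2 changes of 2.43 (adjusted p 0.00076, edgeR) at matched depth and -0.01 (adjusted p 1.0, edgeR) within clusters. Without depth matching the direction turned, to -0.23 for Top2a and -0.26 for Mki67. Among the 10 genes with the highest log2 change at matched depth, Cdc7, Esco2, Knl1, Aspm and E2f8 are genes of DNA replication or chromosome segregation, at 3.24 to 4.11. Gm28653, Gm17546, Tiam2 and Baiap2l1 were also among them, at 3.23 to 4.89.

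Several markers of vessel-wrapping cells and some of myogenic cells were higher at matched depth, and most of those of neutrophils, glia and muscle fibres lower. Of 7 tested pericyte or smooth muscle markers 4 rose at matched depth (Rgs5, Myh11, Notch3 and Cspg4), and of 12 satellite or myogenic markers 4 rose (Myod1, Myog, Chrna1 and Mymx) and Chodl fell. The median log2 difference of the satellite or myogenic list was 1.97, 1.31, 0.32 and -0.07 in LNP-CRISPR bulk, vehicle bulk, LNP-CRISPR kit and vehicle kit. All 10 neutrophil, 7 of 8 glial and 12 of 15 fibre markers fell. Over all genes tested 8.61% rose and 17.8% fell. The 10 genes with the lowest log2 change, -5.61 to -8.79, held the neutrophil genes Ngp, S100a9, S100a8, Slpi and Trem1 and Ncmap, a protein of noncompact myelin. S100a9, a calcium-binding protein of neutrophils, had 1394, 22.3, 3.76 and 0 CPM in high-mitochondrial barcodes, against 26796, 12544, 828 and 0 CPM in their pairs in the same order of libraries. Within classes 0 of 8 pericyte or smooth muscle markers changed, while 12 of 15 fibre markers (median log2 -2.13), 6 of 11 FAP markers (-1.06), 3 of 7 glial markers and 2 of 7 neutrophil markers fell. There 6 of 12 satellite or myogenic markers fell, among them Pax7 (log2 -1.37), Myf5 (-1.75) and Chodl (-4.41), and Myod1 (1.002) and Mymx (1.40) rose; the last 2 act in commitment and fusion of muscle precursors.

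Stress genes gave no common direction. Of 22 tested immediate early genes, a group switched on rapidly by stimuli that include tissue dissociation, 4 fell (Fos, Jund, Dusp1 and Btg2) and 0 rose, a share near the 17.8% over all genes, with a median log2 change of -0.21; scaled to all non-mitochondrial UMIs 3 rose and 1 fell, with a median of 0.28. Fos had 780, 1015, 599 and 746 CPM in high-mitochondrial barcodes of LNP-CRISPR bulk, vehicle bulk, LNP-CRISPR kit and vehicle kit, against 940, 1183, 1936 and 1459 CPM in their pairs (log2 -1.27 ± 0.31 SE, adjusted p 0.016, edgeR). Of 16 heat shock genes 3 rose (Hsph1, Hspd1 and Hspa9) and 4 fell (Hspa8, Hspb8, Dnajb1 and Cryab). Their median was -0.03, and over all genes 8.61% rose and 17.8% fell. Of the 3 that rose, Hspd1 and Hspa9 encode chaperones of the mitochondrion. Within classes 0 of the 16 rose and 4 fell, and within clusters 0 rose and 1 fell. At matched depth and scaled to all non-mitochondrial UMIs, 5 rose and 1 fell. Of 11 genes of the unfolded protein and integrated stress responses Xbp1 fell and 0 rose, and under that scaling 4 rose and 0 fell.

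No tested gene of p53 targets, apoptosis or mitophagy, the removal of damaged mitochondria, rose at matched depth in the TMM fit. Of 14 p53 targets Cdkn1a, Ccng1 and Phlda3 fell and 0 rose, again near the 17.8% over all genes, and the list median was 0.16 (log2). Cdkn1a, an inhibitor of the cell cycle (chromosome 17, 29090976 to 29100727), had 161, 165, 223 and 232 CPM in high-mitochondrial barcodes of LNP-CRISPR bulk, vehicle bulk, LNP-CRISPR kit and vehicle kit, against 240, 345, 706 and 542 CPM in their pairs. It fell at matched depth (log2 -1.64 ± 0.26 SE, adjusted p 0.0027), within classes (-0.80, adjusted p 0.013) and within clusters (-0.90, adjusted p 0.046; edgeR). Of 10 apoptosis genes 4 fell (Bak1, Cycs, Bcl2 and Mcl1) and 0 rose, and of 8 mitophagy genes 5 fell (Pink1, Bnip3, Bnip3l, Fundc1 and Map1lc3b) and 0 rose, beside 17.8% lower over all genes. Within classes 1 of 10 apoptosis genes (list median -0.03) and 4 of 7 mitophagy genes (-0.76) fell. Within clusters 0 of 7 apoptosis genes (0.07) and 0 of 6 mitophagy genes (-0.16) fell. At matched depth and scaled to all non-mitochondrial UMIs, 4 p53 targets and 2 apoptosis genes rose. Under that scaling 2 p53 targets and 1 apoptosis gene fell, and the same number of mitophagy genes, 5, fell.

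The metallothioneins Mt1 and Mt2, small metal-binding proteins, fell in all 3 comparisons. Mt1 (chromosome 8, 94179082 to 94180327) had 2426, 1442, 1913 and 1667 CPM in high-mitochondrial barcodes of LNP-CRISPR bulk, vehicle bulk, LNP-CRISPR kit and vehicle kit, against 3818, 3536, 8003 and 5826 CPM in their pairs, with no overlap. Its log2 change was -1.93 ± 0.28 at matched depth (SE, adjusted p 0.0018), -1.97 within classes and -1.30 ± 0.28 within clusters (adjusted p 0.017; edgeR). Mt2 changed by -1.41 at matched depth (adjusted p 0.023, edgeR), but not beyond the threshold when scaled to all non-mitochondrial UMIs (-0.93) or when either kit library was left out. Of 10 interferon response genes Isg15 and Ifitm3 fell, and of 9 NRF2 targets, which answer oxidative stress, Gclc rose and Slc7a11 and Osgin1 fell. Both counts are near the shares over all genes (8.61% higher, 17.8% lower). Of 16 genes of NF-kB and acute inflammation Nfkb1 rose and Il1b fell, which lies below the share over all genes in each direction. Scaled to all non-mitochondrial UMIs 5 rose and 1 fell.

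Within clusters few genes passed. The highest named were Plxna1, a semaphorin receptor (log2 1.10 ± 0.28 SE, adjusted p 0.044, edgeR), and Col11a2, a fibrillar collagen chain (1.97 ± 0.40 SE, adjusted p 0.010, edgeR). Plxna1 had 42.8, 34.8, 185.0 and 150.7 CPM in cluster-matched high-mitochondrial barcodes of LNP-CRISPR bulk, vehicle bulk, LNP-CRISPR kit and vehicle kit, against 24.9, 14.4, 77.6 and 62.8 CPM in their pairs, and was higher in 4 of 4 libraries. The lowest were the antigen presentation genes Cd74 (-2.35) and H2-Ab1 (-2.14), the sarcomere genes Myh8 (-2.97) and Tcap (-2.42), and the anticoagulant receptor Thbd (-2.26). With the limit at 10% in place of 20%, Myh8 and Tcap had the opposite sign, at 0.53 and 1.12.

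Cas9 RNA took a higher share of UMIs in the high-mitochondrial barcodes of both LNP-CRISPR libraries, although most Cas9 UMIs lay outside them. Cas9 is an added feature of the matrices and does not belong to the mouse genome. No Cas9 UMI was counted in either vehicle library, which allows up to 13.2 CPM in the 77 high-mitochondrial barcodes of vehicle bulk and 2.64 CPM in the 256 of vehicle kit (3 UMIs). In LNP-CRISPR bulk the 122 high-mitochondrial barcodes held 4674 Cas9 UMIs, 18237 CPM (95% interval 17718 to 18767), against 1285 CPM in the 1152 remaining barcodes. In LNP-CRISPR kit the 299 held 1976 UMIs, 1481 CPM (1416 to 1548), against 228 CPM in the 1907 remaining barcodes. The remaining barcodes held 31374 Cas9 UMIs in LNP-CRISPR bulk and 8375 in LNP-CRISPR kit, so that high-mitochondrial barcodes held 12.97% and 19.1% of the Cas9 UMIs beside 1.04% and 3.50% of all non-mitochondrial UMIs. Per barcode the means were 38.3 UMIs against 27.2 in LNP-CRISPR bulk and 6.61 against 4.39 in LNP-CRISPR kit, although high-mitochondrial barcodes were shallower.

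At matched depth Cas9 stood at 18380.0 CPM against 1254 CPM in LNP-CRISPR bulk, a ratio of 14.7 (13.1 to 16.5), and at 1485 CPM against 138 CPM in LNP-CRISPR kit, a ratio of 10.8 (9.24 to 12.6). Within classes the ratios were 8.90 and 14.5, and within clusters 3.38 and 1.79. Cluster 17 gave 28 of the 81 class pairs and 28 of the 67 cluster pairs of LNP-CRISPR bulk. Since its high-mitochondrial and remaining barcodes differed in markers, the bulk ratios do not hold cell type fixed. Few barcodes held most of the Cas9. The highest 12 of the 122 high-mitochondrial barcodes of LNP-CRISPR bulk held 68.8% of their Cas9 UMIs, and the highest 30 of the 299 of LNP-CRISPR kit held 91.1%. Without the highest barcode on each side the matched ratios were 18.3 and 10.99. Thinned to 300 non-mitochondrial UMIs per barcode, 57.4% of the high-mitochondrial barcodes of LNP-CRISPR bulk had a Cas9 UMI, against 17.4% of their pairs, and 13.4% of those of LNP-CRISPR kit had one, against 4.23%. The unthinned shares were 76.5% against 41.7% in LNP-CRISPR bulk and 40.8% against 17.6% in LNP-CRISPR kit.

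**Figure D4:**
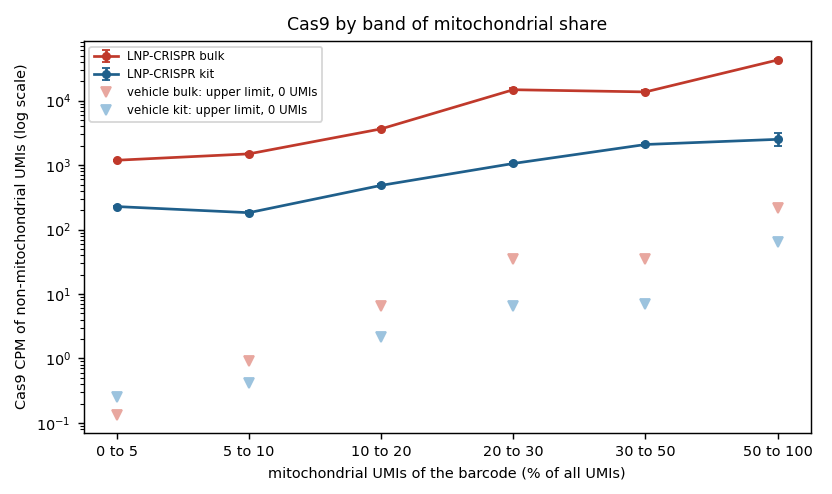
Cas9 in UMIs per 1000000 non-mitochondrial UMIs (y axis, log scale) by band of mitochondrial share (x axis) in both LNP-CRISPR libraries, with exact Poisson 95% intervals that cover counting error only; triangles give the limit that 0 UMIs allow in the vehicle libraries. The level is 1190.0 CPM in the lowest band and 42802 CPM in the highest band of LNP-CRISPR bulk, and 228 and 2511 CPM in those of LNP-CRISPR kit.

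The Cas9 level also differed between bands of mitochondrial share on the same side of 20%. From the lowest band (0 to 5%) to the highest (50 to 100%) it was 1190.0, 1494, 3645, 14777, 13668 and 42802 CPM in LNP-CRISPR bulk and 228, 183, 485, 1059.8, 2089 and 2511 CPM in LNP-CRISPR kit. The share of long noncoding RNA was 6.54%, 9.61%, 15.5%, 17.5%, 23.3% and 24.8% in the same bands of LNP-CRISPR bulk. Both quantities have the same denominator, and these bands use the quantity that chose the barcodes, so their order is a description.

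Cas9 was also set side by side within each class. In LNP-CRISPR bulk, cluster 17 had 31763 CPM in 55 high-mitochondrial barcodes, against 1557 CPM in the 34 remaining ones, and 26483 against 1005 CPM without the highest barcode on each side. Its high-mitochondrial and remaining barcodes differed in endothelial markers (Pecam1 at 37.6 against 1226 CPM), so cell type is not held fixed there. FAP-like high-mitochondrial barcodes had 8540.1 CPM against 1636 CPM, and 5035 against 1577 CPM without the highest barcodes. Macrophage or monocyte-like ones had 7618 CPM against 1492 CPM, and 3354 against 922 CPM without them. In LNP-CRISPR kit the satellite or myogenic-like ones had 2367 CPM against 230.0 CPM, a ratio of 10.3 (9.69 to 10.9). The pericyte or smooth muscle-like ones had 427 CPM against 96.9 CPM, a ratio of 4.41 (3.74 to 5.18). The 21 glial-like ones had 0 Cas9 UMIs, which allows up to 95.4 CPM, against 82.2 CPM in 429 remaining glial-like barcodes and 22.9 CPM there without the highest barcode, so a difference was not detectable at this depth. These ratios compare barcodes of 1 library each, and the differences between classes were not tested.

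Counts assigned to a haemoglobin gene moved with Cas9, a relation looked at after the values were seen. Hba-a2, an alpha-globin gene (chromosome 11, 32296489 to 32297298), had 262 UMIs (1022 CPM) in the high-mitochondrial barcodes of LNP-CRISPR bulk and 1 UMI (4.42 CPM) in those of vehicle bulk. In the kit libraries it had 52 UMIs (39.0 CPM) in LNP-CRISPR and 6 UMIs (5.28 CPM) in vehicle. The other red blood cell genes did not go with it: in LNP-CRISPR bulk the same barcodes had 0 UMIs of the near-identical alpha-globin gene Hba-a1, 3 of the beta-globin gene Hbb-bs and 0 of Alas2, the haem synthesis enzyme of red cell precursors. Reads of Hba-a1 and Hba-a2 can be hard to assign between them, so the split between the 2 is uncertain. Whether reads of the delivered RNA were assigned to Hba-a2 was not tested, so the Hba-a2 values are counts under that name in the matrices and cannot be read as globin expression.

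By Cas9 count, Hba-a2 had a UMI in 0 of 30 high-mitochondrial barcodes of LNP-CRISPR bulk with 0 Cas9 UMIs, in 12 of 60 with 1 to 19, and in 30 of 32 (93.8%) with 20 or more. In LNP-CRISPR kit it had one in 4 of 181 (2.21%), 9 of 96 (9.38%) and 16 of 22 (72.7%). The remaining barcodes showed the same order, with 7.41%, 22.6% and 83.7% in LNP-CRISPR bulk and 1.95%, 4.98% and 61.3% in LNP-CRISPR kit. Across barcodes Spearman's rho between the counts of Hba-a2 and Cas9 was 0.77 in the 122 high-mitochondrial barcodes of LNP-CRISPR bulk and 0.42 in the 299 of LNP-CRISPR kit, as a description of barcodes that share a library and differ in depth. There were 17.8 Cas9 UMIs per Hba-a2 UMI in the high-mitochondrial barcodes and 26.7 in the remaining ones of LNP-CRISPR bulk.

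**Figure D5:**
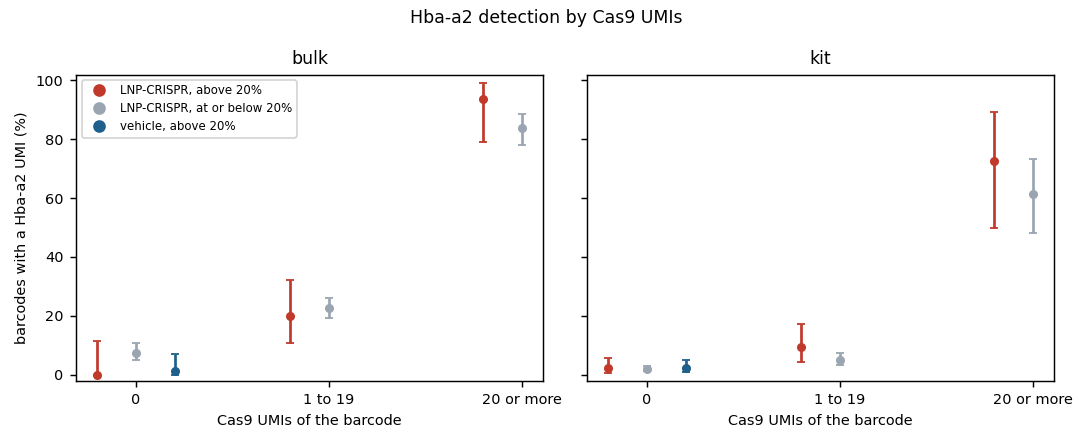
Percent of barcodes with an Hba-a2 UMI (y axis) by number of Cas9 UMIs (x axis) in the bulk (left) and kit (right) libraries, for high-mitochondrial and remaining barcodes of LNP-CRISPR and high-mitochondrial barcodes of vehicle, with exact binomial 95% intervals that cover counting error only. Of high-mitochondrial barcodes with 20 or more Cas9 UMIs, 93.8% in LNP-CRISPR bulk and 72.7% in LNP-CRISPR kit held one.

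Between treatments, the share of high-mitochondrial barcodes differed in opposite directions in the 2 isolations. In bulk it was 9.58% (8.02 to 11.3) in LNP-CRISPR and 6.01% (4.77 to 7.46) in vehicle, a ratio of 1.59 (1.19 to 2.15). In kit it was 13.6% (12.2 to 15.1) in LNP-CRISPR and 15.4% (13.7 to 17.2) in vehicle, a ratio of 0.883 (0.744 to 1.05). Above 50% mitochondrial UMIs the counts were 34 in LNP-CRISPR and 18 in vehicle for bulk (ratio 1.90, 1.04 to 3.57), and 29 and 35 for kit (0.626, 0.369 to 1.05). Treatment and library cannot be told apart.

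Genes of NF-kB and acute inflammation were the stress list that stood higher in the high-mitochondrial barcodes of LNP-CRISPR than of vehicle in both isolations by more than 1.5 times. Their sum was 9848 CPM in LNP-CRISPR bulk and 4478 CPM in vehicle bulk, a ratio of 2.20 (2.04 to 2.37), and 4082 CPM in LNP-CRISPR kit and 2136 CPM in vehicle kit, a ratio of 1.91 (1.82 to 2.01). The depth-matched remaining barcodes had ratios of 1.23 in bulk and 2.92 in kit. Within classes the ratio was 1.72 (1.505 to 1.97) in cluster 17 of bulk, 1.57 (1.46 to 1.69) in pericyte or smooth muscle-like and 2.05 (1.92 to 2.20) in satellite or myogenic-like high-mitochondrial barcodes of kit. In bulk it was 1.35 (1.20 to 1.53) in FAP-like and 1.84 (1.49 to 2.28) in macrophage or monocyte-like high-mitochondrial barcodes. In cluster 17, Nfkb1 alone had 258 of the 1053 UMIs of the list in LNP-CRISPR bulk and 45 of 271 in vehicle bulk; without it the ratio was 1.56 (1.34 to 1.81). Neutrophil markers in the same barcodes stood at 1628 CPM in LNP-CRISPR bulk and 311 CPM in vehicle bulk, and their part in the ratio was not tested. Without Nfkb1 the ratios over all matched high-mitochondrial barcodes were 2.18 in bulk and 1.93 in kit. Cxcl1, a chemokine that attracts neutrophils, had 1524 CPM in LNP-CRISPR bulk and 721 CPM in vehicle bulk, and 1026 CPM in LNP-CRISPR kit and 423 CPM in vehicle kit. Nfkbia, the inhibitor that NF-kB itself induces, had 963 CPM in LNP-CRISPR kit and 470 CPM in vehicle kit, but within cluster 17 it stood at 1002 CPM in LNP-CRISPR bulk and 1555 CPM in vehicle bulk.

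The other stress lists differed less between treatments. In high-mitochondrial barcodes the ratios of LNP-CRISPR to vehicle were 0.879 in bulk and 0.9502 in kit for immediate early genes, 0.903 and 0.898 for heat shock genes, and 0.954 and 0.917 for p53 targets. Hypoxia and metallothionein genes had ratios of 1.71 (1.56 to 1.87) in bulk and 1.06 (1.01 to 1.10) in kit, and interferon response genes 1.65 (1.29 to 2.11) and 0.973 (0.830 to 1.14). Neutrophil markers stood at 2800 CPM in LNP-CRISPR bulk and 102.4 CPM in vehicle bulk within the high-mitochondrial barcodes, beside 52833 and 22959 CPM in their depth-matched pairs. Their part in the bulk values was not tested. The NF-kB ratios within the kit classes stand beside neutrophil marker sums of 12.8 CPM in LNP-CRISPR kit and 4.42 CPM in vehicle kit over all high-mitochondrial barcodes there.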

How the data were processed

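Single-cell 3' RNA libraries (10x chemistry 3.1) were sequenced from 4 samples. The authors deposited filtered UMI counts per gene and barcode, per the file headers from cellranger 5.0.1; Cell Ranger 7.0.1 with the mm10 build stands in the submitters' processing notes, and which version made the matrices is not settled. The Cas9 feature counts with the others. No doublet caller was run. The matrices held 0 columns of other samples.

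Barcodes with at least 200 genes were split at 20% mitochondrial UMIs. The members and gene lists were chosen with earlier results of these data known. Clustering used scanpy 1.11.5 (Python 3.11.15) on 2000 variable non-mitochondrial genes, 30 principal components, 15 neighbours and Leiden resolution 1.0 (leidenalg 0.10.2). A cluster was named from at least 3 enriched markers. It stayed unnamed if another list had more markers than its own among its 10 leading genes. A cluster that was shallow for its libraries also stayed unnamed if none of its own markers was among them. Pairs lay within 0.5 log2 units of non-mitochondrial UMIs. Summed counts were fitted with edgeR 4.0.16 (R 4.3.3; TMM, filterByExpr, library as block, 3 residual degrees of freedom), with calls at an adjusted p under 0.05; mitochondrial genes and Cas9 stayed out. DESeq2 1.42.0 was an alternative. The fits were tested on simulated data. Alternatives covered the 10% and 30% limits, 500 genes, matching, scaling, thinning to 300 UMIs and leaving out each library.

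Named genes were Cas9, the mitochondrial genes, the 10 highest and 10 lowest called genes at matched depth with at least 100 UMIs and 1 direction in 4 libraries, the 5 and 5 within clusters, and the 3 most abundant of each list; the called members of the lists, Nfkbia within classes, cluster 17 and the Hba-a2 relation were chosen after their values were seen. Gene positions and kinds came from GENCODE M21 (GRCm38). Intervals are exact 95% intervals, and depth sets them. Some genes that the rule names are not reported here.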

Additional observations from a re-analysis of the deposited data

Results flagged for a closer look

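At matched depth the tenocyte list differed in sign between treatments. The median log2 difference of its genes was -2.26 in LNP-CRISPR bulk and 3.63 in vehicle bulk, and -1.86 in LNP-CRISPR kit and 0.021, near 0, in vehicle kit. Within clusters the medians were -1.41, -0.08, 0.26 and -0.22 in the same order. Tenocyte-like barcodes were 5.74% of the high-mitochondrial barcodes of LNP-CRISPR bulk and 7.83% of the depth-matched pairs. In vehicle bulk they were 14.3% and 2.78%. The part of cell type in the list values was not tested. The median of heat shock genes at matched depth lay above 0 in both LNP-CRISPR libraries, at 0.29 in bulk and 0.053 in kit. It lay below 0 in both vehicle libraries, at -0.14 in bulk and -0.21 in kit. The median of p53 targets at matched depth lay below 0 in the bulk libraries, at -0.54 in LNP-CRISPR and -0.28 in vehicle. It lay above 0 in the kit libraries, at 0.48 in LNP-CRISPR and 0.18 in vehicle. The summed CPM of the p53 list was lower than in the pairs in every library, kit included. Its log2 ratios were -0.41 and -0.31 in LNP-CRISPR bulk and vehicle bulk, and -0.50 and -0.18 in LNP-CRISPR kit and vehicle kit. The difference was not tested in any of these 3 cases.

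The 43 barcodes of LNP-CRISPR bulk with under 200 genes, which no comparison used, held 334 Cas9 UMIs, 24150.0 CPM. The corresponding barcodes of the vehicle libraries held 0.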

How the results depend on the processing

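The share of high-mitochondrial barcodes in LNP-CRISPR bulk, vehicle bulk, LNP-CRISPR kit and vehicle kit was 15.1%, 11.2%, 22.8% and 25.6% with the limit at 10%, and 6.51%, 4.22%, 6.94% and 9.36% at 30%. With at least 500 genes it was 7.26% in LNP-CRISPR bulk. The kit ratio of LNP-CRISPR to vehicle was 0.741 at the 30% limit. At matched depth, 844 genes higher became 1601 at the 10% limit, 2107 without matching, 145 after thinning and 2536 scaled to all non-mitochondrial UMIs; leaving out 1 library gave 139 to 964. The 1741 lower became 972 at the 30% limit, 4221 without matching, 376 after thinning and 1046 scaled to all non-mitochondrial UMIs. Leaving out 1 library gave 526 to 1977. The number of genes tested also changed, so these counts are not shares of 1 set. It was 9800 in the main fit, 11915 and 7354 at the 10% and 30% limits, 15633 without matching and 1388 after thinning. With 1 library left out it was 5473 to 10832. Within clusters, 8 genes higher became 4 with 500 genes, 3 with DESeq2, 26 matched on all UMIs, 497 with pairs from the same class, 13 and 4 at the 10% and 30% limits, 16 with no filter on low counts, 3 at Leiden resolution 2.0 and 16 without the highest barcode of each gene; leaving out 1 library gave 5 to 9. The 110 lower became 68 with 500 genes, 233 matched on all UMIs, 911 with pairs from the same class, 10 and 42 at the 10% and 30% limits, 43 at resolution 2.0, 0 after thinning and 34 scaled to all non-mitochondrial UMIs. Leaving out 1 library gave 39 to 63. Within clusters 593 genes were tested after thinning, against 6787 in the main fit, and 3870 to 7876 with 1 library left out. Of 23 lists, 6 had a median above 0, against 3 without matching and 10 scaled to all non-mitochondrial UMIs. The matched Cas9 ratio was 5.86 in bulk and 24.2 in kit matched on all UMIs, 3.38 and 1.79 within clusters, 8.90 and 14.5 within classes, and 8.59 and 7.13 at the 10% limit. In bulk it was also 20.2 after thinning, 18.3 without the highest barcode and 5.22 at the 30% limit, and in kit 6.496 without matching. Signs turned at the 10% limit for Atp5b (0.065), Myh8 (0.53) and Tcap (1.12), and without depth matching for Baiap2l1 (-0.30), Chrna1 (-0.98), Cxcl1 (-1.04), Flt1 (1.32), Hsp90aa1 (-0.87), Hspa5 (-0.58), Mki67 (-0.26), Myod1 (-0.24), Myog (-0.28) and Top2a (-0.23). Of 1594 values of named genes under alternatives, 1366 kept direction and call. The cause was not tested. Class pairing, the scaling to all non-mitochondrial UMIs and the NF-kB sum without Nfkb1 were chosen after seeing the data. No paired analysis was possible because the labels give no shared replicate numbers; the library itself was the block. With 1 library per group, no difference between treatments can be set against a spread between animals, and the shallow depth of high-mitochondrial barcodes limits genes of low abundance.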

Other observations

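An unnamed cluster of the kit libraries, cluster 6, was the shallowest that held many high-mitochondrial barcodes, 30 of 208 (14.4%) in LNP-CRISPR kit and 24 of 178 (13.5%) in vehicle kit. All 54 of them had a UMI of the muscle fibre list, at 21279 CPM, against 330 of 332 remaining kit barcodes of the cluster, at 10474 CPM. No marker list was enriched in the cluster as a whole.

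Barcodes with under 200 genes lay mostly above the 20% limit, with 39 of 43 in LNP-CRISPR bulk, 23 of 24 in vehicle bulk, 1 of 1 in LNP-CRISPR kit and 13 of 16 in vehicle kit.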
